A study of Mus musculus with 16 samples.

Results

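The let-7 and miR-98 family was followed through its guide arms, the strand of each hairpin that is mostly kept after processing. There are 9 of them among the 1881 mature mouse miRNAs on the array, mmu-let-7a-5p, mmu-let-7b-5p, mmu-let-7c-5p, mmu-let-7d-5p, mmu-let-7e-5p, mmu-let-7f-5p, mmu-let-7g-5p, mmu-let-7i-5p and mmu-miR-98-5p, and they were taken by name alone. The species prefix is left out from here on. Their signal was compared between 8 wild-type (WT) mice and 8 Dgcr8+/- mice, with 1 mouse per array. All were males aged 8 months, and the line had been back-crossed to C57BL/6J. The Dgcr8+/- mice lack 1 copy of Dgcr8 in every cell, and no other allele or agent separates the groups. The RNA came from a bulk slice of the lateral ventricle (LV) wall, the tissue with the ciliated ependymal cells next to the ventricle. In such a slice, fewer cells of a type and less RNA per cell cannot be told apart, and the array does not measure Dgcr8 mRNA itself.

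Let-7 miRNAs are among the most abundant miRNAs of the adult brain. They accumulate as neural progenitors differentiate and repress growth and cell-cycle genes, and the RNA-binding protein Lin28 blocks their maturation in early cells. A primary let-7 transcript is cut in the nucleus by Drosha with its partner Dgcr8 and then by Dicer, and the guide strand enters an Argonaute protein, where bases 2 to 8, the seed, find the target. MiR-98 is a let-7 miRNA by sequence that kept another name.

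The mature sequences of all 9 members were found by name among the RefSeq miRNAs of mouse genome build GRCm38.p6. They are shown 5′ to 3′ with the seed in capitals, because the members share the seed and their sequences differ only in the lower-case bases.

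let-7a-5p: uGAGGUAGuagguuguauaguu
let-7f-5p: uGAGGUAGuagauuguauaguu
let-7d-5p: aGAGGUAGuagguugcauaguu
let-7b-5p: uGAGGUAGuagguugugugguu
let-7c-5p: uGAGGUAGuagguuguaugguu
let-7e-5p: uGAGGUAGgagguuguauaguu
let-7g-5p: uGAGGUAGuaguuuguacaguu
let-7i-5p: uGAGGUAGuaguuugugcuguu
miR-98-5p: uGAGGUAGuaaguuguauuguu

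Each is 22 bases long, and the same seed was found in 11 of 1679 mature mouse miRNAs of that table (0.655%). The 2 that are not members are let-7k and miR-1961. Across the 36 pairs of members, 1 to 6 bases differ, and 4 pairs differ by 1 base. With positions counted from 1 at the 5′ end and the base of let-7a-5p first, let-7c-5p differs from let-7a-5p by A19G, let-7e-5p by U9G and let-7f-5p by G12A. MiR-98-5p differs from let-7a-5p by G11A and A19U, and let-7d-5p alone changes the first base, by U1A, together with U16C.

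The members come from several chromosomes. On chromosome 13, on the minus strand, lie let-7a-5p (chr13:48538239-48538260), let-7f-5p (chr13:48537889-48537910) and let-7d-5p (chr13:48536078-48536099), in no other annotated gene. A second copy of let-7f-5p (chrX:151912353-151912374) and miR-98-5p (chrX:151913229-151913250) lie on the plus strand of chromosome X within the span of Huwe1, a ubiquitin ligase gene. On chromosome 15, within the long noncoding RNA Lncppara, lie a copy of let-7c-5p (chr15:85706616-85706637) and let-7b-5p (chr15:85707325-85707346), both on the plus strand. The other copy of let-7c-5p (chr16:77599672-77599693, plus strand) neighbours the miRNA genes Mir99a and Mir125b-2. Let-7e-5p (chr17:17830366-17830387, plus strand) lies within the span of Spaca6 beside Mir99b and Mir125a. Let-7g-5p (chr9:106178846-106178867, plus strand) lies within Wdr82, and let-7i-5p (chr10:122985698-122985719, minus strand) in no other annotated gene. The gene Mirlet7a-2 on chromosome 9 lies within Mir100hg beside Mir100 and Mir125b-1. Since identical copies give the same mature RNA, the signals of let-7a-5p, let-7c-5p and let-7f-5p are sums over their loci.

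The array software called every member detected on all 16 arrays, and 495 miRNAs that were detected on at least 8 of the 16 were tested. The members were among the brightest features. By rank of signal among the 1881 miRNAs, let-7a-5p held rank 9 to 11, let-7f-5p rank 12 on every array, let-7c-5p 13 to 14, let-7b-5p 16 to 18, let-7g-5p 18 to 20, let-7d-5p 19 to 22, let-7i-5p 21 to 30, let-7e-5p 31 to 47 and miR-98-5p 67 to 116. Probes differ in brightness for the same amount of RNA, so these ranks do not order the members by abundance. Before any normalization between arrays, the members made up 7.51% ± 0.51 (SD, n = 8) of the summed miRNA signal of a WT mouse and 6.17% ± 0.96 (SD, n = 8) of that of a Dgcr8+/- mouse.

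The Dgcr8+/- arrays were dimmer as a whole. The number of detected miRNAs was 495 to 540 (median 511) in WT mice and 467 to 492 (median 477) in Dgcr8+/- mice, and the summed signal was lower in the Dgcr8+/- mice as well (2-sided exact permutation test, p = 0.00412). Slide 1 held 6 WT and 2 Dgcr8+/- arrays and slide 2 held 2 WT and 6 Dgcr8+/- arrays. For the labelled tissue, 4 of 5 miRNAs of multiciliated cells were tested, with miR-449c-5p at the floor on all arrays. After quantile normalization 0 of the 4 were called, with 0 log2 fold changes below 0 and a median of 0.29. The log2 of their summed signal was 9.05 to 10.3 in WT and 9.73 to 10.6 in Dgcr8+/- mice. All 5 neuronal miRNAs were tested as well, with a log2 sum of 14.93 to 15.07 in WT and 14.97 to 15.12 in Dgcr8+/- mice, and miR-128-3p was called lower (−0.11) and miR-138-5p higher (0.21). Of 2 choroid plexus miRNAs, miR-204-5p was called lower (−0.29, limma adjusted p = 0.0136) and miR-211-5p was not called (0.00, limma adjusted p = 0.989). Their log2 sum was 9.06 to 9.52 in WT and 8.66 to 9.29 in Dgcr8+/- mice. Without Dgcr8+/- replicate 2, described below, they had −0.23 (limma adjusted p = 0.0190) and −0.11 (0.0634). Over all tested miRNAs, 27.9% were called lower and 28.3% higher, and the counts of these short lists are read beside those shares. Of the 3 miRNAs of microglia and immune cells 1 was called lower (log2 sum 6.97 to 7.29 and 6.72 to 7.16). Of the 3 of oligodendrocytes 1 was called higher. Of the 4 of blood vessels 2 were called higher (10.68 to 10.83 and 10.63 to 10.91), and of the 2 of red blood cells 0 were called (9.01 to 9.76 and 8.85 to 9.48). The part of these differences in the members' signals was not tested.

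Array Dgcr8+/- replicate 2, on slide 1, stood apart from the other 15. Its stringency spike-in ratio, a quality value the array software writes, was 0.178, against 0.353 to 0.423 on the others. It also had the lowest signal of the hybridisation spike-ins (log2 12.7, against 13.9 to 15.1) and of the labelling spike-ins (log2 9.95), and the fewest detected miRNAs, 467. Each result below that rests on this array is therefore given with and without it.

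After quantile normalization, which forces all arrays to 1 common distribution, the log2 fold changes of the family were small. A bright member that keeps nearly the same rank on every array receives nearly the same value from this step. The size of a genotype difference is limited there by the method. Within-group SDs of the let-7 members were 0.03 to 0.16 after this step and 0.27 to 0.36 before it. That of miR-98-5p was 0.40 after it and 0.34 before it. Log2 fold changes are given as Dgcr8+/- minus WT, and adjusted p-values are from limma with Benjamini-Hochberg adjustment over the 495 tested miRNAs (SE, standard error). One member, let-7g-5p, was called lower at an adjusted p below 0.05 and 0 were called higher (at an unadjusted p below 0.05 also 1 and 0). Of all tested miRNAs, 27.9% were called lower and 28.3% higher. All 9 members had log2 fold changes below 0, as did 44.4% of the tested miRNAs, and they ran from −0.15 to −0.03 with a median of −0.04, beside a median of 0.04 for all tested miRNAs.

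**Figure D1:**
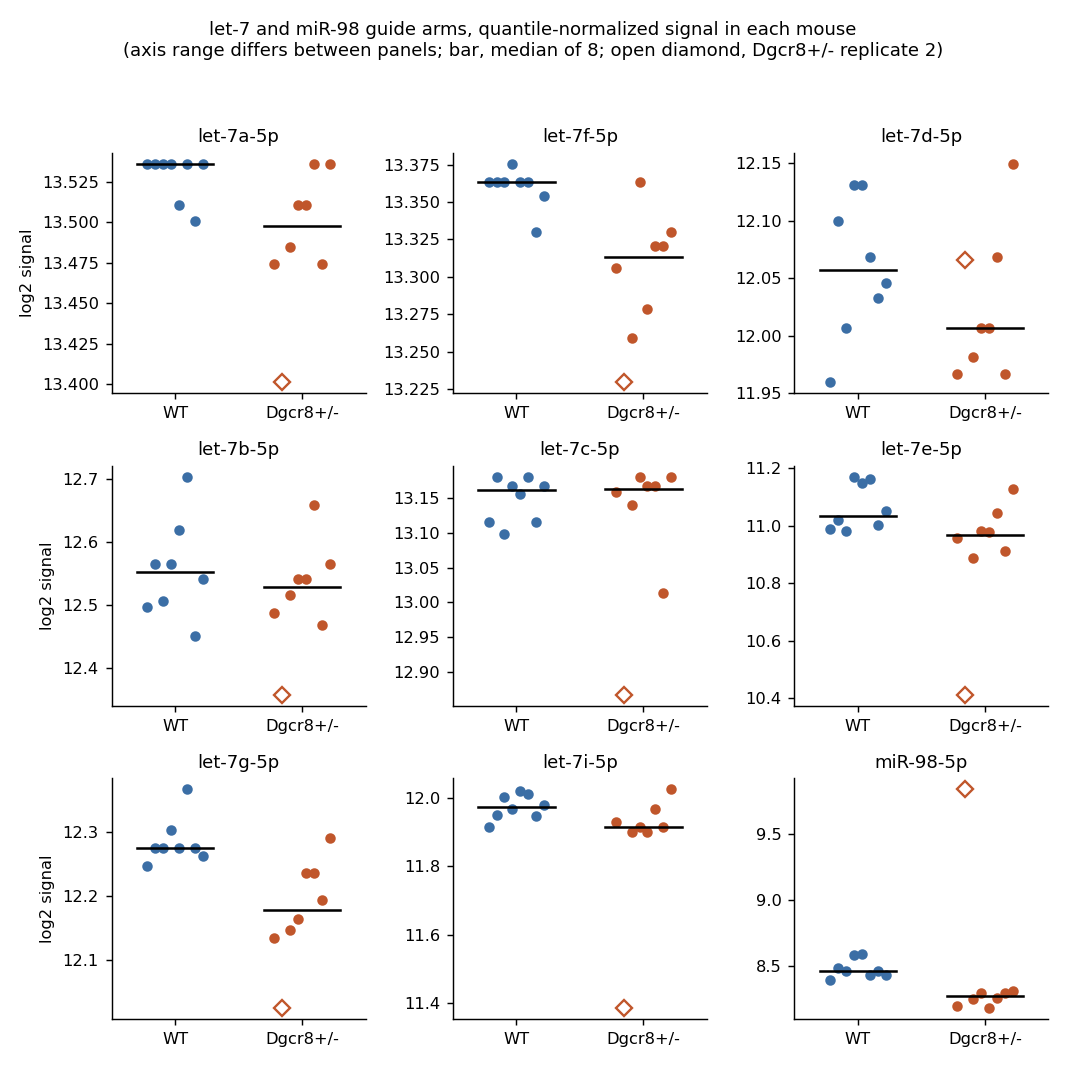
Quantile-normalized log2 signal (y axis, with its own range in each panel) of the 9 guide arms in 8 WT and 8 Dgcr8+/- mice. Each point is 1 mouse, the bar is the median of the group, and the open diamond is Dgcr8+/- replicate 2, which has the highest miR-98-5p signal of all 16 mice, 9.84, and the lowest let-7i-5p and let-7e-5p signals.

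None of the 3 members of the chromosome 13 cluster passed the test in limma, and let-7f-5p depended on the test used. In WT mice the log2 signal of let-7a-5p was 13.50 at the lowest, 13.54 at the median and 13.54 at the highest, and in Dgcr8+/- mice it was 13.40, 13.50 and 13.54. The groups overlapped, with 4 of 8 Dgcr8+/- mice below every WT mouse and the log2 fold change at −0.04 (SE 0.03, limma adjusted p = 0.313). Let-7f-5p, which also comes from chromosome X, had 13.33, 13.36 and 13.38 in WT mice and 13.23, 13.31 and 13.36 in Dgcr8+/- mice. Of the Dgcr8+/- mice, 6 of 8 lay below every WT mouse, and the log2 fold change of let-7f-5p was −0.06 (SE 0.03, limma adjusted p = 0.118). It was called lower by limma with trend and robust estimation (adjusted p = 0.0114) and by the methods' t-test after Benjamini-Hochberg adjustment (0.00634). Limma after normexp background correction called it lower as well (adjusted p = 0.0260). Its exact permutation p, unadjusted and 2-sided, was 0.00233. Let-7f-5p held rank 12 on every array. Its SD in WT mice was 0.01 after quantile normalization and 0.22 before it. These tests and counts of mice therefore use a spread that the normalization narrowed. Let-7d-5p ranged from 11.96 to 12.13 (median 12.06) in WT mice and from 11.97 to 12.15 (median 12.01) in Dgcr8+/- mice. These ranges nearly coincided, and the log2 fold change of let-7d-5p was −0.03 (SE 0.04, limma adjusted p = 0.492).

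Let-7b-5p and let-7c-5p, which share the chromosome 15 transcript, did not pass the test either. Let-7b-5p ranged from 12.45 to 12.70 (median 12.55) in WT mice and from 12.36 to 12.66 (median 12.53) in Dgcr8+/- mice, with a log2 fold change of −0.04 (95% confidence interval −0.14 to 0.06). Let-7c-5p ranged from 13.10 to 13.18 (median 13.16) and from 12.87 to 13.18 (median 13.16), with a log2 fold change of −0.04 (95% confidence interval −0.14 to 0.06). Both groups overlapped for each miRNA. After quantile normalization the intervals reach neither a fall nor a rise of more than 0.14 on the log2 scale.

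Let-7g-5p, the Wdr82 member, was the one called. Its log2 signal was 12.25, 12.27 and 12.37 at the lowest, median and highest WT mouse and 12.03, 12.18 and 12.29 in Dgcr8+/- mice. Of the Dgcr8+/- mice, 7 of 8 lay below every WT mouse, and the groups overlapped through 1 mouse. The log2 fold change was −0.11 (SE 0.04, limma adjusted p = 0.0317), a fall of 7.10%, and it was −0.08 (adjusted p = 0.0200) without Dgcr8+/- replicate 2. The call was lost when WT replicate 4 (adjusted p = 0.0511), WT replicate 6 (0.0618), Dgcr8+/- replicate 1 (0.0559) or Dgcr8+/- replicate 3 (0.0540) was left out. The call also depended on the scaling between arrays. It was not reached with scaling by the 75th percentile, over probes that every array detected (−0.04, limma adjusted p = 0.591) or over all probes (−0.21, 0.125), with cyclic loess (−0.06, 0.199), total gene signal (−0.05, 0.304) or hybridisation spike-ins (−0.22, 0.590), or with marked spots kept (−0.09, 0.273). The difference was uneven over its 2 probes, −0.05 (adjusted p = 0.228) for 1 and −0.14 for the other.

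Let-7e-5p, from chromosome 17, and let-7i-5p, from chromosome 10, had log2 fold changes as low as that of let-7g-5p or lower without passing the test, and both values were nearer 0 without Dgcr8+/- replicate 2. Let-7e-5p ranged from 10.98 to 11.17 (median 11.03) in WT mice and from 10.41 to 11.13 (median 10.97) in Dgcr8+/- mice, and the lowest of the other 7 Dgcr8+/- mice was at 10.89. Its log2 fold change was −0.15 (SE 0.08, limma adjusted p = 0.107), and −0.08 (adjusted p = 0.107) without that array. Let-7i-5p ranged from 11.92 to 12.02 (median 11.97) in WT mice and from 11.38 to 12.03 (median 11.92) in Dgcr8+/- mice, and 11.90 was the lowest of the other 7. The log2 fold change of let-7i-5p was −0.11 (SE 0.07, limma adjusted p = 0.205), and −0.04 (adjusted p = 0.227) without that array.

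MiR-98-5p, the dimmest member, depended on that array altogether. Its log2 signal was 8.39, 8.46 and 8.59 at the lowest, median and highest WT mouse and 8.18, 8.27 and 9.84 in Dgcr8+/- mice. The 9.84 was Dgcr8+/- replicate 2, whereas the other 7 lay between 8.18 and 8.31, below every WT mouse. With all 16 arrays the log2 fold change was −0.03 (SE 0.19, limma adjusted p = 0.908). Without Dgcr8+/- replicate 2 it was −0.23 (SE 0.04, limma adjusted p = 6.23e-05), a fall of 14.5%, and the 7 remaining Dgcr8+/- mice did not overlap with WT mice (2-sided exact permutation test, p = 0.000155, the smallest that 7 against 8 allow). In that comparison of 15 arrays, 30.3% of the tested miRNAs were called lower, and in 18.2% every Dgcr8+/- mouse lay below every WT mouse. The members called lower were then 2, miR-98-5p and let-7g-5p, and the median log2 fold change was −0.04 for the members and 0.04 for all tested miRNAs.

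The signal of miR-98-5p on Dgcr8+/- replicate 2 exceeded the mean of the other 7 by 1.59 on the log2 scale, which ranked first of the 495 tested miRNAs. Both of its probes showed it. The first read 9.41 on this array, 7.85 to 7.94 on the other Dgcr8+/- arrays and 8.06 to 8.25 on the WT arrays, and the second read 10.2, 8.45 to 8.60 and 8.66 to 8.88. The miRNA with the third largest excess was let-7k, the tested miRNA outside the family that carries the same seed.

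let-7k: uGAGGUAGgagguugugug

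Over its 19 bases let-7k differs from let-7b-5p by U9G alone, with the base of let-7b-5p first. Its log2 signal was 3.75, 3.89 and 4.21 at the lowest, median and highest WT mouse, 5.26 on Dgcr8+/- replicate 2 and 3.52 to 3.98 in the other Dgcr8+/- mice. The let-7k value rests mostly on its second probe. That probe read 6.19 on replicate 2, 4.54 to 4.94 on the other Dgcr8+/- arrays and 4.78 to 5.12 on the WT arrays. The first probe was near the floor, at 1.92, 0 to 0.65 and 0 to 1.19. With all arrays the log2 fold change of let-7k was 0.03 (SE 0.19, limma adjusted p = 0.906). MiR-1961 and let-7j, which bears the family name but not the seed, were detected on no array. Dgcr8+/- replicate 2 had both the low stringency ratio and the excess of miR-98-5p and let-7k, as the plot of signal against spike-in ratio shows. This rests on 1 array, and the part of the ratio in the excess was not tested.

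**Figure D2:**
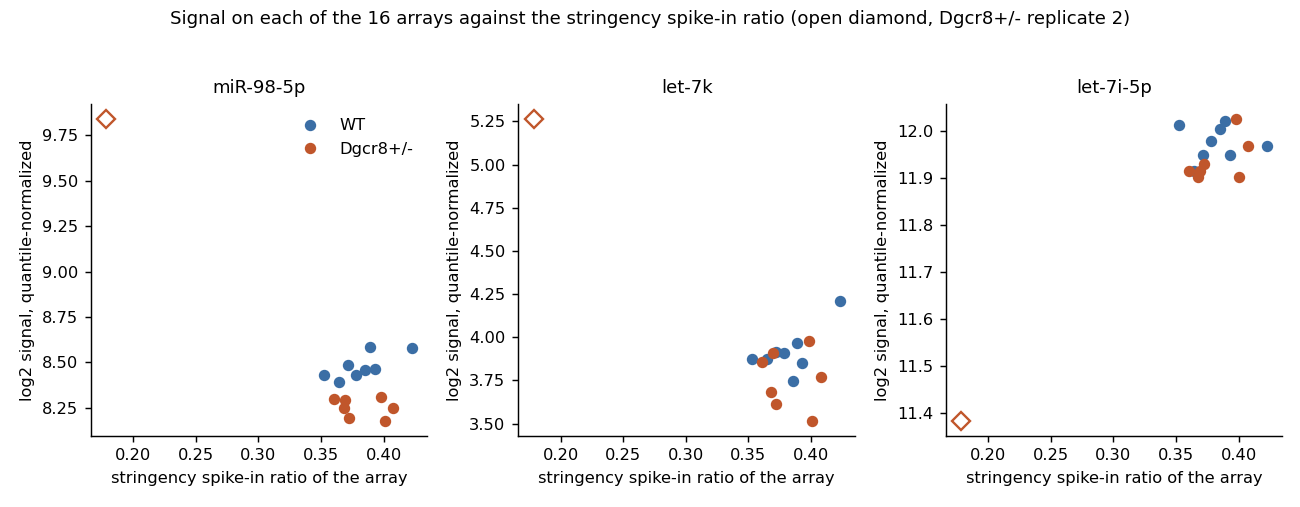
Quantile-normalized log2 signal (y axis) of miR-98-5p, let-7k and let-7i-5p on the 16 arrays against each array's stringency spike-in ratio (x axis), with WT and Dgcr8+/- mice in different colours. Dgcr8+/- replicate 2, the open diamond at a ratio of 0.178, is the highest for miR-98-5p and let-7k and the lowest for let-7i-5p, and the other 15 arrays lie between 0.353 and 0.423.

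Quantile normalization removes a change that most miRNAs share and keeps changes of rank among the probes. The comparison was therefore repeated with no normalization between arrays. All 9 members were then called lower, where 59.2% of the tested miRNAs were called lower and 0 higher (limma, adjusted p below 0.05) and 88.9% had a log2 fold change below 0. Their log2 fold changes ran from −0.64 for let-7e-5p and −0.62 for let-7i-5p to −0.46 for let-7a-5p, with a median of −0.54, beside a median of −0.39 over all tested miRNAs. Each of the 9 lay below that median. Without Dgcr8+/- replicate 2 all 9 were still called lower, as were 58.6% of the tested miRNAs, with −0.69 for miR-98-5p and −0.36 to −0.50 for the others. The labelling spike-ins, added to each sample, differed by −0.01 on the log2 scale between the genotypes (2-sided exact permutation test, p = 0.949). A larger difference, −0.35, was seen for spike-ins of the hybridisation step (p = 0.0597 by exact permutation). Among those values Dgcr8+/- replicate 2 was lowest (12.7) and WT replicate 6 highest (15.1). Scaling to them moved the median of all tested miRNAs to −0.04 and that of the members to −0.18. All 9 members stayed below the former, and 0 were called lower. The part of RNA input and of hybridisation in the lower signals was not tested.

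**Figure D3:**
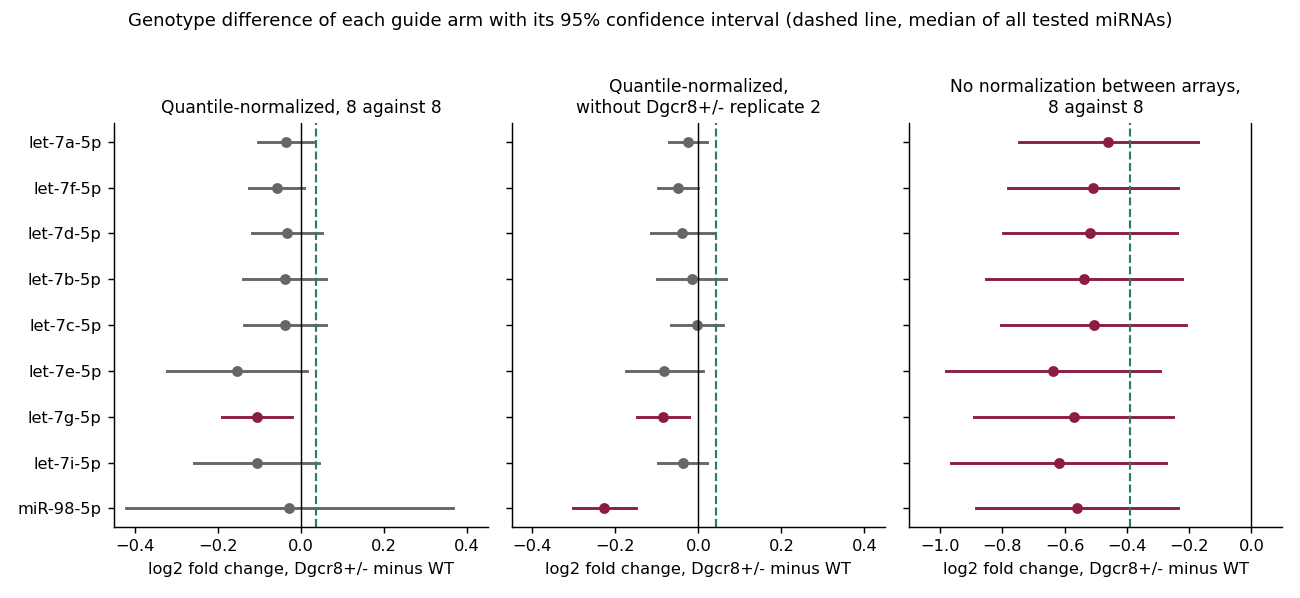
Log2 fold change, Dgcr8+/- minus WT (x axis), of the 9 guide arms with 95% confidence intervals, after quantile normalization with all 16 arrays, after quantile normalization without Dgcr8+/- replicate 2, and with no normalization between arrays (with another x range). Red marks an adjusted p below 0.05 and the dashed line is the median of the 495 tested miRNAs, which lies at 0.04, 0.04 and −0.39 and above all 9 members in each panel.

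Whether members changed unequally was asked of their ratios on the same array, as the log2 difference between 2 members in each mouse. With all 16 arrays, 0 of the 36 ratios differed between the genotypes (exact permutation test, adjusted over the 36 pairs), whereas 7 had an unadjusted p below 0.05, the smallest at 0.00451 for let-7a-5p over let-7g-5p. Without Dgcr8+/- replicate 2, 9 ratios differed, namely all 8 that contain miR-98-5p and let-7a-5p over let-7g-5p. The 8 share miR-98-5p and are not separate results. The ratio of let-7c-5p over miR-98-5p rose most, from 4.67 ± 0.07 (SD, n = 8) in WT mice to 4.89 ± 0.09 (SD, n = 7) in Dgcr8+/- mice on the log2 scale (exact permutation test, adjusted p = 0.00448). That of let-7f-5p over miR-98-5p, which share the Huwe1 locus, rose from 4.88 ± 0.07 (SD, n = 8) to 5.06 ± 0.04 (SD, n = 7), with every Dgcr8+/- mouse above every WT mouse (exact permutation test, adjusted p = 0.00280). The smallest of these 8 changes was 0.14, for let-7g-5p over miR-98-5p. With no normalization between arrays, 15 ratios differed with all arrays and 18 without Dgcr8+/- replicate 2. The 15 were all between let-7 members and not with miR-98-5p. They included let-7a-5p over each other let-7 member (exact permutation test, adjusted p from 0.00559 to 0.0410). The 18 included all 8 that contain miR-98-5p and others between let-7 members.

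**Figure D4:**
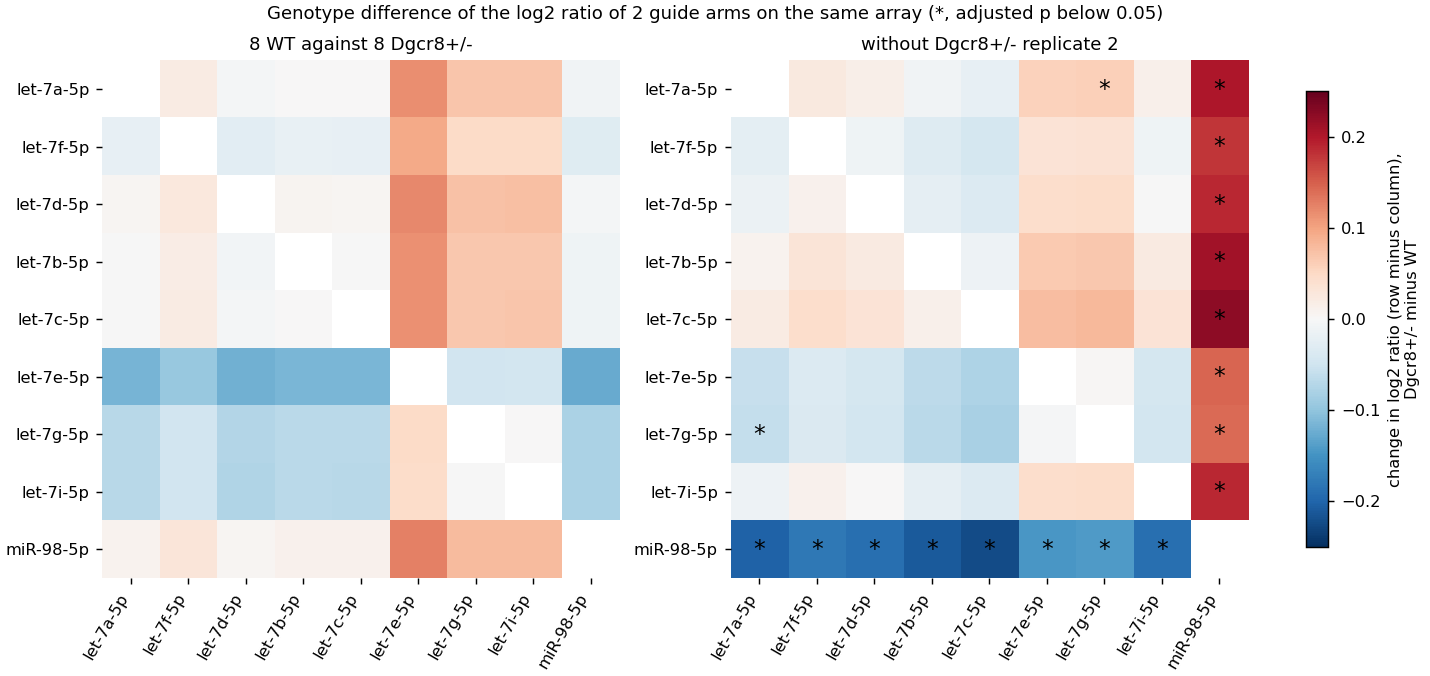
Genotype difference (colour scale, in log2 units) of the ratio of the row's member over the column's member, for 8 WT and 8 Dgcr8+/- mice on the left and without Dgcr8+/- replicate 2 on the right. Asterisks mark an adjusted p below 0.05 over the 36 pairs, which is reached by 0 pairs on the left and by 9 on the right, 8 of them in the row and column of miR-98-5p.

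On the slides taken singly, the differences between the genotype means were −0.39 for let-7e-5p, −0.34 for let-7i-5p and 0.53 for miR-98-5p on slide 1, whose 2 Dgcr8+/- arrays include replicate 2. On slide 2 they were −0.03, −0.01 and −0.21. Those of let-7g-5p were −0.16 and −0.08. When slide was added to the fit as a block, let-7g-5p was still called (log2 fold change −0.12, adjusted p = 0.0400 from limma), but it was not called in that fit without Dgcr8+/- replicate 2 (−0.07, limma adjusted p = 0.129). In the fit with the slide, miR-98-5p had a log2 fold change of 0.16 with all arrays, which did not pass the test, and −0.24 (adjusted p = 0.000563) without Dgcr8+/- replicate 2.

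Each let-7 hairpin also yields a passenger arm, the strand that is mostly degraded. Of the 11 passenger arms on the array, 7 were tested and 4 were detected on no array, namely let-7a-2-3p, let-7f-2-3p, let-7g-3p and miR-98-3p. Of the 7, 0 were called lower and 2 higher, where 28.3% of all tested miRNAs were called higher. The sequences of these 2 are shown with bases 2 to 8 in capitals.

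let-7c-1-3p: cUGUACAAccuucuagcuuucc
let-7f-1-3p: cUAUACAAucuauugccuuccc

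Let-7c-1-3p, from chromosome 16, had log2 signals of 2.64, 2.82 and 3.00 at the lowest, median and highest WT mouse and 2.75, 3.02 and 3.30 in Dgcr8+/- mice. Let-7f-1-3p, from chromosome 13, had 3.19, 3.41 and 3.69 in WT mice and 3.49, 3.56 and 3.85 in Dgcr8+/- mice. The groups overlapped for both, and the software detected each on 11 of 16 arrays. The log2 fold change was 0.22 (SE 0.08, limma adjusted p = 0.0255) for let-7c-1-3p and 0.20 (SE 0.07, limma adjusted p = 0.0267) for let-7f-1-3p. With no normalization between arrays both turned, to −0.16 (adjusted p = 0.283) and −0.17 (adjusted p = 0.108). With the slide as a block, that of let-7c-1-3p was 0.15 (adjusted p = 0.152). The call of let-7c-1-3p was lost without WT replicate 2 (adjusted p = 0.0501), WT replicate 4 (0.0504) or Dgcr8+/- replicate 6 (0.0502), and that of let-7f-1-3p without WT replicate 4 (0.0560), WT replicate 7 (0.0574) or Dgcr8+/- replicate 1 (0.0558). Scaling by the 75th percentile of all probes ended both calls (adjusted p = 0.0541 and 0.0517 from limma), as did normexp background correction (0.134 and 0.0725) and the total gene signal (0.0594 and 0.765).

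The passenger arm minus the guide arm on the same array was compared for the 7 hairpins with both arms tested. The 2 arms are read by different probes, so only the change between genotypes is read. The signals of let-7c-5p and let-7f-5p are sums over their loci, whereas let-7c-1-3p and let-7f-1-3p come from Mirlet7c-1 and Mirlet7f-1 alone. For these pairs, a change between loci cannot be told apart from a change between the arms of a hairpin. This difference rose by 0.26 for let-7c-1-3p over let-7c-5p (exact permutation test, adjusted p = 0.0419 over the 7 hairpins), where 5 of 8 Dgcr8+/- mice lay above every WT mouse. It rose by 0.26 for let-7f-1-3p over let-7f-5p as well (exact permutation test, adjusted p = 0.0218), where 8 of 8 lay above the WT median. With no normalization between arrays the changes were 0.35 and 0.34 (exact permutation test, adjusted p = 0.0533 for both). Both passenger arms are dim, with mean log2 signals of 2.80 and 3.41 in WT mice, beside 13.15 and 13.36 for their guide arms. The part of such low signals and of array brightness in these changes was not tested. When WT replicate 1, 2, 4, 5 or 6 or Dgcr8+/- replicate 3, 6, 7 or 8 was left out singly, 1 hairpin passed. For the other 5 hairpins the change was between −0.02 and 0.09, and between 0.10 and 0.18 with no normalization between arrays. Without Dgcr8+/- replicate 2, let-7a-1-3p over let-7a-5p passed too, with a change of 0.10 (exact permutation test, adjusted p = 0.0337), and RefSeq gives let-7a-1-3p the same sequence as let-7c-2-3p.

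**Figure D5:**
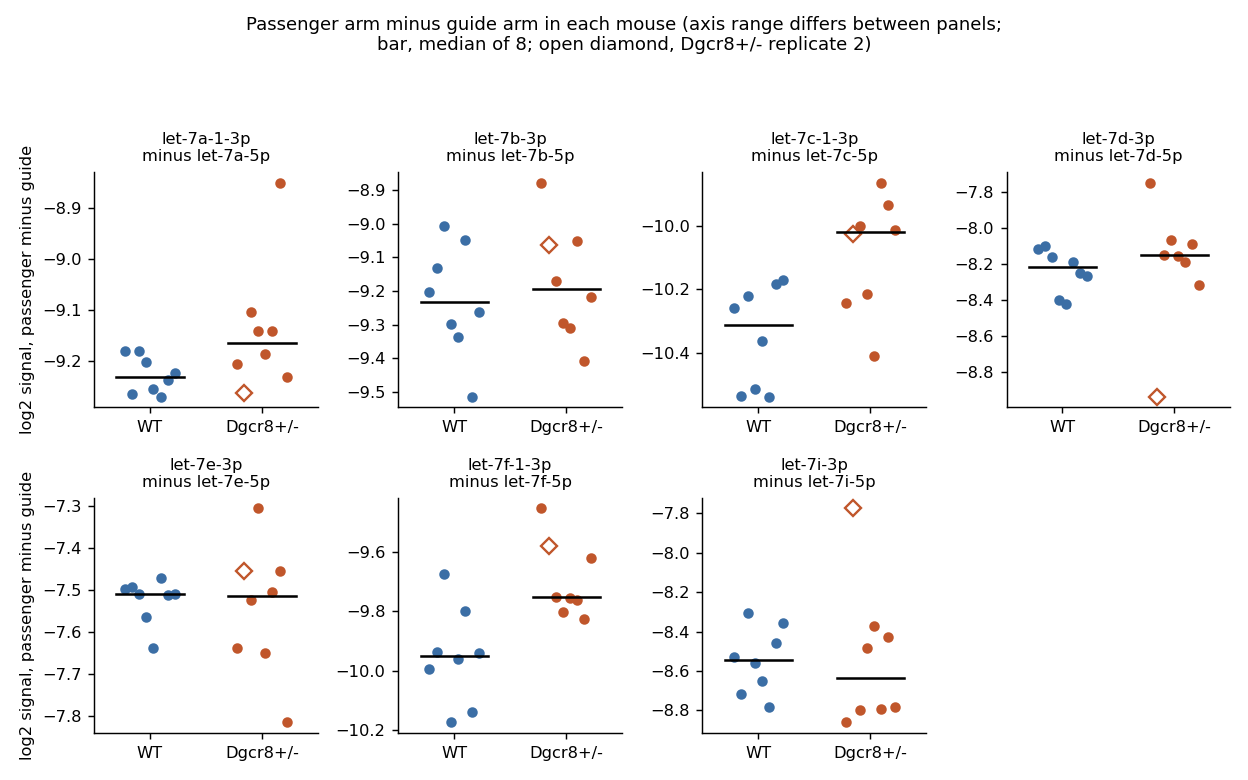
Log2 signal of the passenger arm minus that of the guide arm (y axis, with its own range in each panel) in 8 WT and 8 Dgcr8+/- mice for 7 hairpins. Each point is 1 mouse, the bar is the median of the group and the open diamond is Dgcr8+/- replicate 2. The median is higher in Dgcr8+/- mice for let-7a-1-3p, let-7b-3p, let-7c-1-3p, let-7d-3p and let-7f-1-3p. Of these, let-7c-1-3p and let-7f-1-3p passed the test.

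Among the miRNAs made from the same primary transcripts as let-7a, let-7c and let-7e, namely the guide and passenger arms of miR-99a, miR-99b, miR-100, miR-125a and miR-125b, 9 of 11 were tested, with 3 lower and 1 higher, where 27.9% of all tested miRNAs were called lower and 28.3% higher. On the unnormalized signals, 8 of the 9 were called lower and 0 higher. On chromosome 17, beside let-7e-5p, miR-99b-5p was 7.86 to 7.96 in WT and 7.08 to 7.83 in Dgcr8+/- mice, without overlap, as in 24.2% of the tested miRNAs. Its log2 fold change was −0.21 (SE 0.09, limma adjusted p = 0.0453), and −0.13 without Dgcr8+/- replicate 2. The passenger arm miR-125a-3p of the same locus was 4.24 to 4.44 in WT and 4.37 to 4.78 in Dgcr8+/- mice, with a log2 fold change of 0.22 (SE 0.05, limma adjusted p = 0.00194). The other 2 that fell were miR-100-5p (−0.17) and miR-99a-5p (−0.12), the partners of let-7a-2 and let-7c-1, whereas miR-125b-5p, made from both of those transcripts, had a log2 fold change of 0.04 (adjusted p = 0.329 from limma). On the unnormalized signals miR-125a-3p turned to −0.14 (limma adjusted p = 0.143), and miR-125b-5p turned to −0.34 and was called lower (limma adjusted p = 0.0347).

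Beside the let-7 members, 3 other miRNA families with bright signals were read with the same fit. In the miR-30 family 1 of 5 was called lower and 3 higher, where 27.9% of all tested miRNAs were called lower and 28.3% higher, with a median log2 fold change of 0.09. In the miR-29 family 0 of 3 and in the miR-26 family 0 of 2 were called, with medians of −0.01 and 0.00. On the unnormalized signals, all 5 miR-30, all 3 miR-29 and both miR-26 miRNAs were called lower, as were all 9 let-7 members, and the medians were −0.39, −0.43 and −0.46, beside −0.39 for all tested miRNAs.

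Within the genotypes, the members' deviations from their group means were described by Pearson's r over the 16 arrays. For the 36 pairs r ran from −0.93 to 0.94 with a median of 0.63 after quantile normalization, and from −0.29 to 1.00 with a median of 0.98 with no normalization between arrays, where all points share the brightness of their array. Without Dgcr8+/- replicate 2, with group means taken again, the 36 values of r ran from −0.01 to 0.85 with a median of 0.50 after quantile normalization, and from 0.90 to 1.00 with a median of 0.98 with no normalization. The lowest value with all arrays, that of let-7i-5p with miR-98-5p, was 0.42 without that array, and the highest, that of let-7e-5p with let-7i-5p, was 0.74. With all arrays, the miRNAs outside the family whose deviations were most like the mean of the 9 members were miR-382-5p (r = 0.81), miR-335-5p (0.80), miR-221-3p (0.77), miR-433-5p (0.76) and miR-369-5p (0.76). Without Dgcr8+/- replicate 2 they were miR-301a-3p (0.89), miR-434-3p (0.88), miR-3099-3p (0.86), miR-382-5p (0.86) and miR-369-5p (0.85), so that 2 of the 5 were shared.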

How the data were processed

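MiRNAs of the LV wall were measured in 8 WT and 8 Dgcr8+/- mice on 1-colour Agilent miRNA arrays of 56430 spots, 4415 probes and 1881 miRNAs. The authors deposited for each array the scanner output, in which the Feature Extraction software (version 10.5.1.1 per the submitters' processing notes, 10.7.3.1 per the file headers) gave a background-corrected intensity for every spot, not yet normalized between arrays. A second deposited table of intensities equals the total gene signal of these files. Arrays carry annotation of an older mouse build, and sequences and positions here are those of RefSeq for GRCm38.p6, matched by name.

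Control spots and those marked as outliers were removed from the spot intensities before a mean was taken per probe (each member has 2 probes of 15 spots). Probes were quantile-normalized between arrays as in the study's methods and then averaged per miRNA, with a floor of 1 signal unit before the log2 step. The 495 miRNAs detected on at least 8 of 16 arrays, whatever the genotype, were fitted with limma 3.58.1 (R 4.3.3), with Benjamini-Hochberg adjustment over all 495. The ratios of 2 miRNAs in each mouse were compared with 2-sided exact permutation tests over 12870 groupings of the mice, adjusted over the 36 pairs of members or over the 7 hairpins. The number of arrays limits the precision. With 1 array per mouse, the p-values rest on the spread between mice and between arrays together, and the genotypes were unequally divided over the slides.

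Groups and replicate numbers came from the sample labels. The named miRNAs were all 9 members, every passenger arm of the family, other miRNAs with the same seed or the name let-7, the partners on the same transcripts, and 3 compared families, and those most like the family were ranked by within-genotype correlation with the members' mean. The members and lists were chosen with earlier results of these data known. The fit was tested on simulated data. Alternatives were other normalizations, summaries, background corrections, filters and tests, the slide or the replicate number as a block, single probes, and each array left out in turn, and those joined with leaving out Dgcr8+/- replicate 2, the hybridisation spike-in scaling, all alternatives of the arm comparison and the correlations without that replicate were chosen after seeing the data.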

Additional observations from a re-analysis of the deposited data

Results flagged for a closer look

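In 8 of the 34 groups of 8 mice examined (17 miRNAs in both genotypes, log2 signal after quantile normalization), 1 mouse lay far from the other 7 by Dixon's test, where chance flags about 1 in 20 groups, or 1.7 of 34. In 6 of the 8 the mouse was Dgcr8+/- replicate 2. Its miR-98-5p signal was 9.84, above 8.18 to 8.31 in the other Dgcr8+/- mice, and its let-7k signal was 5.26, above 3.52 to 3.98. It was low for let-7a-5p (13.40, others 13.47 to 13.54), let-7e-5p (10.41, others 10.89 to 11.13), let-7i-5p (11.38, others 11.90 to 12.03) and let-7d-3p (3.13, others 3.83 to 4.22). The other 2 were WT mice. WT replicate 6 had the highest let-7g-5p signal (12.37, others 12.25 to 12.30), and WT replicate 4 the highest let-7k signal (4.21, others 3.75 to 3.97).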

How the results depend on the processing

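Direction and call of the members depended most on the scaling between arrays and on Dgcr8+/- replicate 2, and the cause was not tested. All values are log2 fold changes, Dgcr8+/- minus WT. In the main fit 27.9% of the tested miRNAs were called lower and 28.3% higher. Where a count of members stands without a count over all tested miRNAs, it is not read as a result about the members. With no normalization between arrays they were −0.46 (let-7a-5p), −0.54 (let-7b-5p), −0.51 (let-7c-5p), −0.52 (let-7d-5p), −0.64 (let-7e-5p), −0.51 (let-7f-5p), −0.62 (let-7i-5p) and −0.56 (miR-98-5p), with 9 members called lower and 293 miRNAs lower and 0 higher in all, and let-7a-1-3p (−0.31), let-7b-3p (−0.36), let-7c-1-3p (−0.16), let-7f-1-3p (−0.17) and let-7k (−0.32) turned. Of the 36 ratios 15 then differed, and 0 hairpins passed in the arm comparison. With labelling spike-in scaling the same 8 members had −0.45, −0.53, −0.50, −0.51, −0.63, −0.50, −0.61 and −0.55, with 9 members lower and 264 miRNAs lower and 0 higher, and the same 5 others had −0.30, −0.35, −0.15, −0.16 and −0.32. With no normalization and the slide as a block, the 8 had −0.57, −0.67, −0.63, −0.63, −0.78, −0.61, −0.78 and −0.47, with 9 members and 314 miRNAs lower and 0 higher. With no normalization and without Dgcr8+/- replicate 2 they had −0.36, −0.41, −0.39, −0.43, −0.50, −0.42, −0.47 and −0.69, with 9 members and 290 miRNAs lower, 0 higher, 18 ratios and 0 hairpins. Hybridisation spike-in scaling gave let-7g-5p −0.22 without a call, 0 members lower, 44 miRNAs lower and 2 higher. Scaling by the 75th percentile, taken over probes that were detected on every array, moved let-7a-5p to 0.0755, let-7c-5p to 0.0293, let-7d-5p to 0.0170, let-7f-5p to 0.0256, let-7d-3p to 0.183, let-7e-3p to 0.00196 and let-7i-3p to 0.0702, with let-7g-5p at −0.0361 and 0 members called, beside a median of 0.14 for all tested miRNAs. That of all probes gave let-7g-5p −0.21 and let-7d-3p 0.00993, with 0 members called. Cyclic loess gave let-7a-5p 0.0545, let-7c-5p 0.00650, let-7f-5p 0.00360, let-7g-5p −0.0641, let-7b-3p −0.0208 and let-7d-3p 0.0256, with 0 members called. Total gene signal gave let-7a-5p 0.00523, let-7d-5p 0.0498, let-7f-5p 0, let-7g-5p −0.0453, let-7d-3p 0.26, let-7e-3p 0.0982 and let-7i-3p 0.31, with 0 members called and 0 hairpins. Medians over spots and probes gave let-7b-3p −0.0429 and let-7d-3p 0.0335. With marked spots kept, let-7g-5p was −0.0946 without a call (0 members), let-7b-3p −0.12 and let-7d-3p 0.00951. Let-7f-5p joined let-7g-5p as a call, making 2 members lower, with normexp (−0.0536), the methods' t-test (−0.0585) and limma with trend and robust estimation (−0.0585). With array weights miR-98-5p was called (−0.19, 2 members lower), and let-7b-3p was −0.0138, let-7d-3p 0.0734 and let-7k −0.0838. With the slide as a block miR-98-5p was 0.16 and let-7i-3p 0.00261, and within slide 1 let-7a-5p was −0.0761, let-7b-5p −0.12, let-7c-5p −0.13, let-7e-5p −0.39, let-7f-5p −0.11, let-7i-5p −0.34 and miR-98-5p 0.53. With probe 1 alone, let-7b-5p was 0.00363 and let-7g-5p −0.0524, and with probe 2 alone miR-98-5p was 0.000551.

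With Dgcr8+/- replicate 2 left out before normalization, miR-98-5p was −0.23 and 2 members were called. Without it miR-98-5p was called under the slide block (−0.24), the 75th percentile of detected probes (−0.24), cyclic loess (−0.29), labelling spike-ins (−0.75) and total gene signal (−0.19), while under the slide block let-7b-5p was 0.00838, let-7c-5p 0.00175 and let-7g-5p −0.0702 without a call. Leaving out each array in turn gave −0.12 to −0.0845 for let-7g-5p and −0.23 to 0.0108 for miR-98-5p. It gave −0.0452 to 0.0577 for let-7b-3p, −0.0576 to 0.10 for let-7d-3p and −0.16 to 0.0928 for let-7k. Then 0 to 2 members were called lower, beside 133 to 150 of all tested miRNAs. In these settings 1 to 3 hairpins passed, and 9 ratios differed without Dgcr8+/- replicate 2. The replicate numbers share only a number, since the correlation of same-numbered mice was over 0.1 in 5 of 8 (−0.14 to 0.50). With the replicate number as a block, the fold changes stay as they were, 1 member was called lower (let-7g-5p, −0.11, adjusted p = 0.0457 from limma), and 140 miRNAs were called lower and 147 higher.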
